A study of Mus musculus with 3 samples.

Results

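Isolated probes are array probes whose number has no consecutive partner in the deposited table. The number at the end of each probe name was read, and a probe was isolated when neither the number below it nor the number above it belonged to a probe with a value on all 3 arrays. This held for 7207 of 88734 such probes, or 8.12%. The other 81527 probes, which have at least 1 consecutive neighbour, are called neighboured. No measured value entered the choice, only the probe numbers and the presence of a value. Looking for the partners in the whole table of 88736 probes, 2 of which lack a value on 1 array, left 7204 isolated probes.

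The DNA came from wild-type mouse embryonic stem cells, the self-renewing cells of the early embryo grown in culture. One array carried DNA enriched for 5-methylcytosine (5mC) with a methyl-binding domain reagent, and the other 2 arrays carried DNA immunoprecipitated for 5-hydroxymethylcytosine (5hmC). The title of the second 5hmC array holds the word IVT, which the labels do not explain, and it is called the IVT array here. On each array the enriched DNA carried Cy5 and genomic DNA of wild-type cells carried Cy3, according to the labels. With 1 array in each group, no difference between arrays or between classes of probes has a replicate and no p-value is given. The labels give no passage or culture, and the identity of the cells cannot be checked with markers on a DNA array.

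In mammals 5mC is set mostly at CG dinucleotides by DNA methyltransferases. TET enzymes, which are abundant in embryonic stem cells, oxidise it to 5hmC, so 5hmC can form only where 5mC was before. Enrichment by a protein or antibody on sheared DNA reads a fragment, and a probe therefore reports on its surroundings as well as on its own bases. Values are signed and given as deposited, in units of a logarithm whose base is not stated. A higher value likely stands for more enriched DNA over genomic DNA. This direction is inferred from the channel order that the labels give.

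Most isolated probes were separated from other probes by a single missing number. For 5659 of them (78.5%) the nearest probe was 2 numbers away. For 848 it was 3 numbers away and for 308 it was 4 to 5 away. A further 81 had their nearest probe at 6 to 20 numbers, 112 at 21 to 100 and 199 at over 100. A distance in probe number is not a distance in the genome, since probe positions were not used here, and why a number is absent from the table is not stated. Isolated probes were spread over the probe order. In 86 blocks of 1000 probes they made up 8.23% ± 1.36 (SD over blocks, range 4.60 to 11.8), and in the last 3 blocks 3.40% to 5.45%.

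The values of isolated probes were slightly lower than those of neighboured probes on all 3 arrays. On the 5mC array the median was 0.226 over isolated and 0.246 over neighboured probes, a difference of -0.020. On the 5hmC array the medians were -0.043 and 0.030, a difference of -0.074. On the IVT array they were -0.604 and -0.525, a difference of -0.079. These differences are small beside the spread over isolated probes, whose SDs were 0.975, 1.15 and 1.33 on the 5mC, 5hmC and IVT arrays. The order held over the length of the table on the 5mC array, where the isolated median was the lower in 9 of 9 segments of about 10000 probes, with differences from -0.045 to -0.004. It held in 8 of 9 segments on the 5hmC array (-0.154 to 0.006) and in 8 of 9 on the IVT array (-0.161 to 0.020). Against the 28806 end probes of runs of at least 3 consecutive numbers, the 5hmC difference turned to 0.008, while those of 5mC and IVT were -0.014 and -0.070. The 5hmC difference depended on the gaps in number around the probes compared. Within the settings described further on, weighted as among isolated probes, it was -0.233. Lower levels were not confined to isolated probes. The 27406 probes in runs of 3 to 4 had medians of 0.224, -0.062 and -0.593 on the 5mC, 5hmC and IVT arrays. The 35258 in runs of 5 to 9 had 0.260, 0.096 and -0.484.

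On the 5mC and 5hmC arrays the difference was wider among high values than among low ones. At percentile 95 isolated probes reached 1.85 on the 5mC array against 1.99 for neighboured probes, and 1.89 against 2.04 on the 5hmC array. At percentile 5 the classes were nearly level, with -1.41 against -1.40 for 5mC and -1.825 against -1.821 for 5hmC. The IVT array had the opposite order, with a difference of -0.122 at percentile 5 and of -0.038 at percentile 95.

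**Figure D1:**
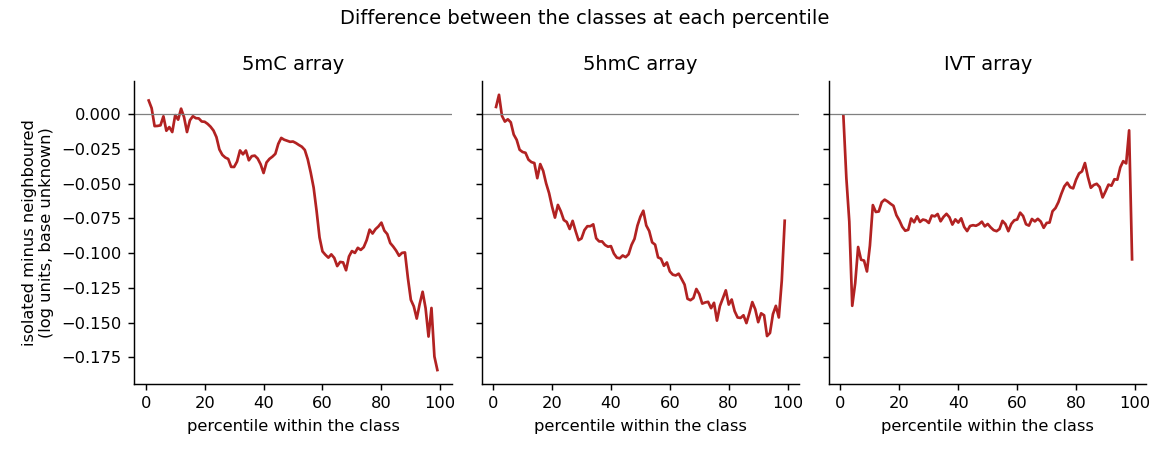
Difference between isolated and neighboured probes (vertical axis, log units of unknown base) at percentiles 1 to 99 of each class (horizontal axis), for each of the 3 arrays. Isolated probes were the lower at 96 of 99 percentiles for 5mC, 97 for 5hmC and 99 for IVT, and for 5mC and 5hmC the gap is wider at high percentiles.

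Counts at the ends of each array show the same contrast. The upper 5.00% of all 88734 probes held 269 isolated probes for 5mC (3.73% of isolated probes), 285 for 5hmC (3.95%) and 341 for IVT (4.73%). The lower 5.00% held 367 (5.09%), 366 (5.08%) and 385 (5.34%), close to the share over all probes. Short runs were also scarce at the upper end of the 5hmC array, with 3.95% for runs of 2 and 4.01% for runs of 3 to 4. Their upper shares for 5mC and IVT were nearer to 5.00%, at 4.71% and 4.86% for runs of 2. For runs of 3 to 4 they were 4.46% and 4.66%. Only 13 isolated probes (0.180%) were in the upper end on all 3 arrays, against 0.263% of all probes. In the lower end on all 3 were 37 (0.513%), against 0.603%. By the settings described further on, these were 3 flanked (0.164%), 27 one-sided (0.541%) and 7 remote isolated probes (1.79%). Neighboured probes in these settings had 0.308%, 0.397% and 0.953%, so only the flanked isolated probes had the lower share. The 5mC array has a dense band of values within 0.05 of its mode of 0.24, and 829 isolated probes (11.5%) lay there against 10.1% of all probes.

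The spread of isolated probes was narrower than that of neighboured probes on the 5mC and 5hmC arrays, with SD ratios of 0.956 and 0.966. On the IVT array the ratio was 1.005. The first ratio was below 1 in 9 of 9 segments of the probe order, the second in 8 of 9 and the third in 5 of 9. The IVT ratio differed between the settings described further on, at 0.954 for flanked, 1.11 for one-sided and 1.16 for remote probes. A narrow spread was not confined to isolated probes. Runs of 2 had SDs of 0.999, 1.13 and 1.28 for 5mC, 5hmC and IVT, against 0.975, 1.15 and 1.33 over isolated probes.

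Isolated probes showed the 5mC to 5hmC relation somewhat less tightly than neighboured probes did. Across isolated probes r of 5mC with 5hmC was 0.573 and Spearman's rho 0.567, against 0.624 and 0.627 across neighboured probes. The values of r for 5mC with the IVT array were 0.361 and 0.411, and for the 5hmC arrays with each other 0.519 and 0.554. These correlations are across probes of the same 3 arrays, which share genomic DNA of the same kind as denominator. The difference for 5mC with 5hmC, -0.052, was below 0 in 9 of 9 segments (-0.066 to -0.019). The difference for 5mC with IVT, -0.050, was below 0 in 8 of 9 segments, and that between the 5hmC arrays, -0.034, in 7 of 9. The last difference turned to 0.012 within settings and to between 0.0094 and 0.055 for isolated probes with no number within 2, 5 or 10, so its direction depends on which probes are compared. The order of the 3 pairs was the same in both classes.

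**Figure D2:**
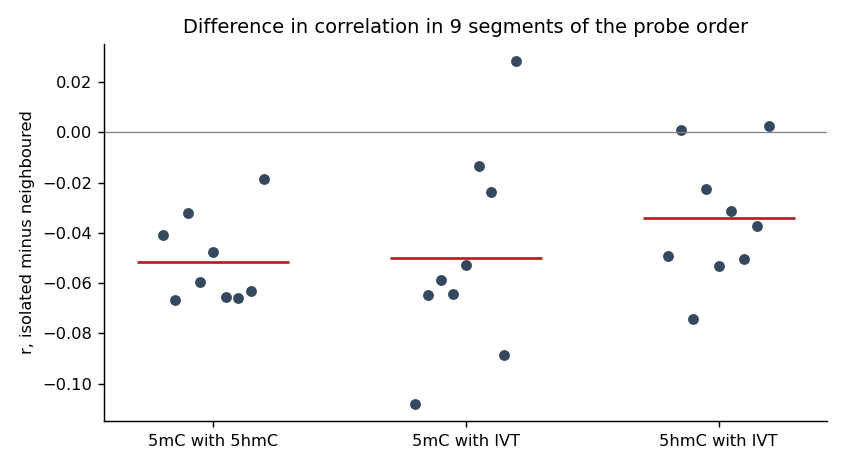
Pearson's r over isolated probes minus r over neighboured probes (vertical axis) for each pair of arrays (horizontal axis). Dots are 9 segments of the probe order and the red line is the difference over all probes, -0.052, -0.050 and -0.034, and only the pair of 5mC with 5hmC has every segment below 0.

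End probes of runs resembled isolated probes in this relation. Across the end probes of runs of at least 3, r was 0.587 for 5mC with 5hmC, 0.379 for 5mC with IVT and 0.527 between the 5hmC arrays. Inner probes of runs of at least 5 had 0.649, 0.436 and 0.572. The slope of 5hmC on 5mC was 0.674 over isolated probes, 0.689 over end probes and 0.757 over inner probes. The residual SD about these lines was 0.941, 0.953 and 0.916. After adjustment for the IVT array, the correlation of 5mC with 5hmC (partial r) was 0.483 over isolated and 0.522 over neighboured probes. Between the 5hmC arrays, adjusted for 5mC, it was 0.409 and 0.417.

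By decile of the 5mC array, the 5hmC medians of isolated probes followed those of neighboured probes at low 5mC and lay below them at high 5mC. In the lowest decile the 5hmC median was -1.55 over 722 isolated probes and -1.58 over neighboured probes. In the highest decile it was 1.18 over 564 isolated probes and 1.305 over neighboured probes. The rise from the first to the last decile was thus 2.73 and 2.89. Over isolated probes each of the 9 steps between deciles was upward in 5hmC and also in IVT, where the rise was 1.68 over isolated and 1.79 over neighboured probes. The IVT medians differed in both directions. Isolated probes were higher in decile 3 (-0.823 against -0.890) and decile 4 (-0.586 against -0.668), and the widest gap was the opposite one in decile 9, with -0.274 over isolated and -0.084 over neighboured probes.

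**Figure D3:**
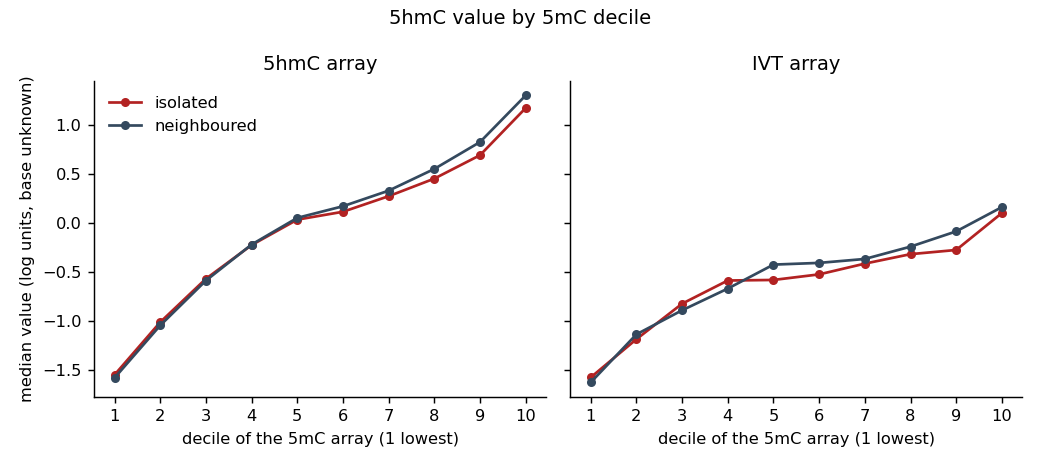
Median 5hmC and IVT values (vertical axis, log units of unknown base) by decile of the 5mC array over all probes (horizontal axis), for isolated and neighboured probes. On the 5hmC array the lines run together in the low deciles and isolated probes lie lower in the highest, at 1.18 against 1.305. On the IVT array isolated probes lie higher in decile 4, at -0.586 against -0.668, and lower in deciles 5 to 10.

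The isolated probes were not uniform. Their medians differed more between settings in the probe order than the medians of all isolated and all neighboured probes did. They were divided by whether another probe lay within 5 numbers on both sides (flanked), on 1 side (one-sided) or on neither side (remote). This division uses numbers and no measured value, and the limit of 5 was set with the values known. There were 1825 flanked (25.3%), 4990 one-sided (69.2%) and 392 remote isolated probes (5.44%). Neighboured probes were divided alike by the gaps before and after their run, which gave 7478, 41535 and 32514 probes.

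Remote isolated probes had low values on every array. Their median was -0.110 for 5mC, -0.897 for 5hmC and -1.46 for IVT. Remote neighboured probes had 0.218, -0.136 and -0.622, so the differences were -0.328, -0.761 and -0.839. In each of 9 segments of the probe order the remote isolated median was the lower on all 3 arrays. With a limit of 20 numbers in place of 5 the 311 remote isolated probes had medians of -0.181, -0.995 and -1.63.

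Low levels in remote places were shared by short runs and were not confined to single probes. Among remote probes the 5hmC median was -0.601 for runs of 2 and -0.658 for runs of 3 to 4, and 0.015 for runs of 5 to 9 and 0.176 for runs of 10 or more. On the IVT array the medians in the same order were -0.979, -0.940, -0.517 and -0.475. The isolated probes lay below each of these on both arrays. On the 5mC array the medians were -0.010, 0.030, 0.247 and 0.276 for the runs.

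The IVT array has a tail of very low values, and remote isolated probes were frequent in it. More than 2 robust SDs below its median, that is below -2.75, lay 500 isolated probes (6.94%) against 6.55% of all probes. Of the remote isolated probes 117 lay there (29.8%), of the one-sided 343 (6.87%) and of the flanked 40 (2.19%). The shares of neighboured probes in the same settings were 10.6%, 4.06% and 2.23%. Short remote runs shared part of this excess, with 17.97% for runs of 2 and 19.99% for runs of 3 to 4. Longer remote runs had 6.95% for runs of 5 to 9 and 5.35% for runs of 10 or more. Remote isolated probes also spread the most on this array, with an interquartile range of 2.73 against 1.57 for one-sided and 1.27 for flanked ones. Their correlation of 5mC with 5hmC was 0.545, that of 5mC with the IVT array 0.338 and that between the 5hmC arrays 0.593. Remote neighboured probes had 0.647, 0.437 and 0.597. Remote runs of 2, however, had 0.559, 0.350 and 0.597, close to the remote isolated probes, and remote runs of 3 to 4 had 0.643, 0.436 and 0.623.

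Flanked isolated probes were high on the 5hmC array and not on the IVT array. Their 5hmC median was 0.395, at percentile 61.8 of all probes, and their IVT median was -0.663, at percentile 45.1. Of these probes 68.9% ranked higher on the 5hmC array than on the IVT array, against 61.8% of flanked neighboured probes and 49.9% of all isolated probes. With the limit of 5, flanked neighboured probes had nearly the same 5hmC median, 0.416, and a higher IVT median, -0.468. The IVT difference of -0.195 was below 0 in 9 of 9 segments (-0.308 to -0.093), while the 5hmC difference of -0.021 was below 0 in 5 of 9. On the 5mC array the medians were 0.266 and 0.316. The 5hmC arrays correlated at 0.532 over flanked isolated and 0.482 over flanked neighboured probes, the opposite order to that over all probes. With a limit of 20 numbers in place of 5, the 5hmC medians were 0.320 over flanked isolated and 0.203 over flanked neighboured probes. The near match on the 5hmC array thus depended on the limit. The IVT medians were then -0.657 and -0.500, and the 5hmC arrays correlated at 0.521 and 0.502.

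One-sided isolated probes differed from one-sided neighboured probes in the median on the 5hmC array and in the lower tail on the IVT array. The 5hmC medians were -0.190 and 0.080, a difference of -0.270 that was below 0 in 9 of 9 segments (-0.423 to -0.139). The median differences on the 5mC and IVT arrays were -0.033 and -0.076. At percentile 5, however, IVT values were -3.30 over isolated and -2.49 over neighboured probes, against -1.86 and -1.74 on the 5hmC array. The lower 5% of the IVT array held 5.37% of one-sided isolated and 2.83% of one-sided neighboured probes, and that of the 5hmC array 5.65% and 3.87%. The higher share on the 5hmC array was not confined to isolated probes, since one-sided runs of 2 had 5.25% there. Their 5hmC median, -0.077, lay between those of the classes, and their IVT share was 3.66%. One-sided runs of 3 to 4 did not share this, with 3.498% for 5hmC, 2.92% for IVT and a 5hmC median of 0.067. Against end probes in the same setting the 5hmC median difference was -0.207 for one-sided, -0.038 for flanked and -0.500 for remote isolated probes.

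**Figure D4:**
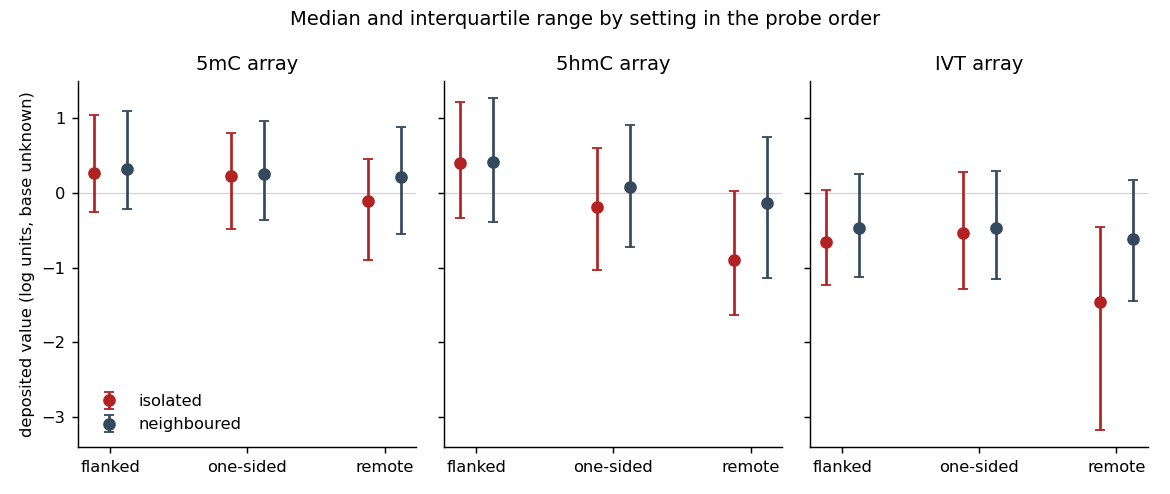
Median (dots) and interquartile range (bars) of the deposited values (vertical axis, log units of unknown base) for isolated and neighboured probes by setting in the probe order (horizontal axis), 1 panel for each array. Remote isolated probes are the lowest on every array, at -0.110, -0.897 and -1.46, and flanked isolated probes lie at 0.395 on the 5hmC array and at -0.663 on the IVT array.

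The same order was seen for 5hmC at a given 5mC. About the line of 5hmC on 5mC fitted over neighboured probes, the median residual was 0.249 for flanked, -0.193 for one-sided and -0.466 for remote isolated probes. It was 0.193, -0.016 and -0.173 for neighboured probes in these settings. Of remote isolated probes 73.2% lay below the line, against 58.6% of remote neighboured probes. On the IVT array the median residuals about the line on 5mC were -0.128, 0.073 and -0.675 for flanked, one-sided and remote isolated probes. For neighboured probes they were -0.016, 0.072 and -0.053, nearly the same for one-sided probes. In both classes flanked probes thus lay above the line on one 5hmC array and below it on the other, though only narrowly below for neighboured probes.

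Isolated probes tracked the probe nearest to them in number. With the nearest probe 2 numbers away, r with that probe was 0.278 for 5mC, 0.661 for 5hmC and 0.504 for IVT values over 5659 probes. At 3 numbers it was 0.225, 0.532 and 0.431, and at 4 to 5 numbers 0.191, 0.524 and 0.536, the last of these above the value at 2. At 6 to 20 numbers it was -0.030, 0.278 and 0.196 over 81 probes, at 21 to 100 numbers 0.054, 0.030 and 0.138, and at over 100 numbers 0.213, 0.153 and 0.123 over 199 probes. The 5hmC median was -0.004 at a distance of 2, 0.025 at 3, -0.287 at 4 to 5, -0.485 at 6 to 20, -1.02 at 21 to 100 and -0.995 at over 100. It was thus lower at long than at short distances, without a step down at each. The isolated probes just inside the rule, at a distance of 2, had medians of 0.234, -0.004 and -0.580 on the 5mC, 5hmC and IVT arrays. Runs of 2, just outside it, had 0.232, -0.006 and -0.534.

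**Figure D5:**
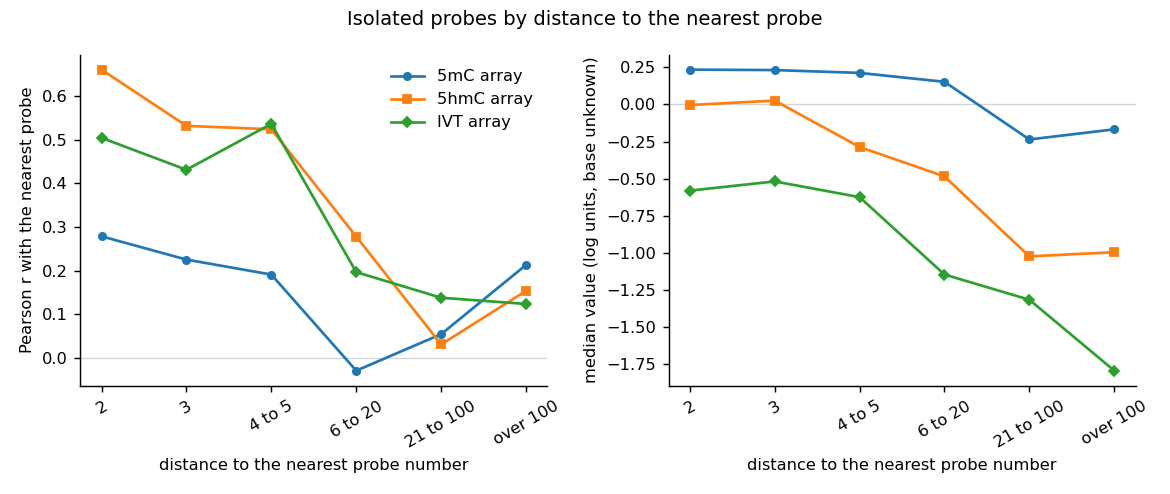
Isolated probes by distance to the nearest probe number (horizontal axis): Pearson's r with that probe (left) and median value in log units of unknown base (right), for each array. The 5hmC correlation goes from 0.661 at a distance of 2 to 0.030 at 21 to 100, and the medians of all 3 arrays are lower beyond 20 numbers than at 2.

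At equal distance in number, a missing number between probes went with a slightly lower correlation, whether or not a probe of the pair was isolated. Probes 2 numbers apart correlated at 0.277, 0.646 and 0.470 on the 5mC, 5hmC and IVT arrays where the number between was absent and at least 1 of the pair was isolated (5604 pairs). Where it was absent and neither probe was isolated, the values were lower still, at 0.269, 0.626 and 0.409 (3885 pairs). Where the number between was present, they were 0.311, 0.687 and 0.539 (41983 pairs). The correlation across arrays between such probes, divided by the geometric mean of the within-array values, was 0.969 for 5mC with 5hmC, 0.712 for 5mC with IVT and 0.687 between the 5hmC arrays for pairs with an isolated probe. For pairs with no isolated probe and the number between absent it was 0.966, 0.693 and 0.657, and with the number between present 0.979, 0.725 and 0.702.

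A set of 1105 isolated probes had a probe 2 numbers away on both sides, which allowed each to be set against the mean of its flanks. Their r with that mean was 0.302 for 5mC, 0.692 for 5hmC and 0.356 for IVT values. For 17587 probes inside runs of at least 5, with the same flanks, it was 0.401, 0.780 and 0.562. The median difference from the flanks over all 1105 isolated probes was 0.122 on the 5hmC array (SD over probes 0.826) and -0.098 on the IVT array (SD 1.09). Inside runs it was 0.105 and -0.043. The share of probes above their flanks was nearly the same in both classes, at 58.0% of isolated probes against 57.0% inside runs for 5hmC and 46.4% against 48.1% for IVT.

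Isolated probes in which 5mC and 5hmC ranked far apart were few. With 5mC at least 50 percentile points above both 5hmC arrays there were 138 (1.91%), against 1.57% of all probes. With both 5hmC arrays at least 50 points above 5mC there were 83 (1.15%), against 1.20%. The first kind made up 23 of 392 remote isolated probes (5.87%), 100 of 4990 one-sided (2.004%) and 15 of 1825 flanked ones (0.822%). Remote, one-sided and flanked neighboured probes had 2.10%, 1.23% and 0.776%. The second kind made up 2 remote (0.510%), 58 one-sided (1.16%) and 23 flanked isolated probes (1.26%), against 1.01%, 1.31% and 1.498% of neighboured probes in these settings.

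Single probes show what these ranks stand for, and 4 are named by number because no gene is paired with a probe here. Isolated probe A_68_P32536633 had a 5mC value of 1.90 (percentile 94.1), a 5hmC value of -2.03 (2.01) and an IVT value of -2.735 (6.59). Its nearest probe, 7 numbers above and in a run of 4, had 0.207, -1.48 and -2.54, so it shared the low 5hmC values and not the high 5mC value. It belongs to the last 3 blocks, whose 127 isolated probes had an IVT median of -1.08, against -0.592 for the isolated probes of earlier blocks. Neighboured probes shared this shift, with IVT medians of -0.950 in the last 3 blocks and -0.510 before. Probe A_68_P22448808 had a 5mC value of 1.67 (percentile 91.2), a 5hmC value of -1.53 (10.8) and an IVT value of -3.82 (3.20). The isolated probe 3 numbers below it had -1.44, -1.95 and -3.95, and was thus low on all 3.

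In the opposite direction, probe A_68_P21129822 had a 5mC value of -1.40 (percentile 4.998), a 5hmC value of 1.45 (87.6) and an IVT value of 0.934 (89.3). Its nearest probe, 13 numbers below, had 0.191, -1.31 and 0.374. Probe A_68_P26885089 had a 5mC value of -1.67 (percentile 2.44), a 5hmC value of 1.31 (84.9) and an IVT value of 1.41 (94.7). It was flanked by probes 2 numbers away on both sides, with 5mC values of -0.902 and -1.56, 5hmC values of 1.03 and -0.467 and IVT values of -0.614 and -0.924. Both flanks were low in 5mC, and neither was high on both 5hmC arrays.

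The isolated probe with the highest mean percentile over the 3 arrays, 99.1, had values of 2.98, 3.16 and 1.98 on the 5mC, 5hmC and IVT arrays. Its nearest probe, 2 numbers above, had 2.46, 2.03 and 0.731 and was also high. The isolated probe with the lowest mean percentile, 0.214, had -2.18, -2.45 and -5.10. Its nearest probe, 4 numbers above, had -0.457, -1.85 and -4.37, low on both 5hmC arrays and less so for 5mC.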

How the data were processed

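Wild-type mouse embryonic stem cell DNA was hybridised to 3 arrays of 2 colours, with 1 array for each group. The authors deposited 1 signed score for each probe and array, of the kind a log ratio of Cy5 over Cy3 gives. No source used here gives the software, log base, normalization, centring or genome build, and scanner intensities and probe positions were not used. The depth is therefore unknown, and precision is limited by how few arrays there are. No other column of the table was left aside (0 columns).

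Only probes measured on all 3 arrays entered. Medians, SDs and correlations (Pearson's r, Spearman's rho) were calculated in Python 3.11.15, numpy 2.4.6, pandas 2.3.3 and scipy 1.17.1, and figures were drawn with matplotlib 3.10.9. Percentiles are ranks over all probes of an array. A robust SD is the interquartile range divided by that of a unit normal distribution. With 1 array for each group no test was made. Probes are not replicates, so the spread over 9 segments of the probe order is given instead. The calculations were tested on simulated data that kept the deposited probe numbers.

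The members, the alternatives and the lists were chosen with earlier results of these data known. Named probes are the 2 isolated probes with the largest rank difference each way (the smaller of the differences to the 5hmC arrays), and the probes of highest and lowest mean percentile are given without a name. The settings flanked, one-sided and remote and the segments were added after the values were seen. Alternatives covered the comparison class, the distance that counts as a neighbour, summaries, the part of the probe order and thresholds.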

Additional observations from a re-analysis of the deposited data

Results flagged for a closer look

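Among isolated probes, flanked and one-sided ones changed order between the 5hmC and IVT arrays, while remote ones were the lowest on both. This difference between arrays was not tested, since there is 1 array in each group. Flanked isolated probes exceeded the other isolated probes by 0.633 for 5hmC and by 0.051 for 5mC, but their IVT median was lower by 0.081 (-0.081). The effect on the 5hmC array thus exceeded that on the IVT array by 0.713, and the effect on the 5mC array exceeded it by 0.132. One-sided isolated probes lay below the other isolated probes for 5hmC (-0.418) and 5mC (-0.010), and above them for IVT (0.214). These effects differed by -0.632 between the 5hmC and IVT arrays and by -0.224 between the 5mC and IVT arrays. A wider gap between flanked and one-sided probes on the 5hmC than on the IVT array was not confined to isolated probes. Flanked and one-sided neighboured probes had 5hmC medians of 0.416 and 0.080 and IVT medians of -0.468 and -0.464.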

How the results depend on the processing

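Alternatives gave 128 values. Of these 81 stayed within the SD over segments of the main value (for shares within its 95% exact binomial interval, for counts within 1.5 times), 38 moved further and 9 changed direction. The binomial interval treats probes as independent, which they are not, so it served only as a tolerance. The cause of the shifts was not tested, except where a stricter rule keeps fewer probes by construction. Isolated probes numbered 1548, 392 and 338 with no number within 2, 5 and 10. Median differences for 5mC, 5hmC and IVT were then -0.045, -0.260 and -0.187 at 2, -0.355, -0.925 and -0.933 at 5, and -0.431, -1.03 and -1.04 at 10. The difference in r between the 5hmC arrays changed direction there, to 0.0094, 0.044 and 0.055, and that of 5mC with 5hmC was -0.076 at 5. Against end probes the 5hmC median difference changed direction to 0.0081. The differences in r were then -0.015 for 5mC with 5hmC, -0.018 for 5mC with IVT and -0.0071 between the 5hmC arrays. The value of -0.018 counts as within the SD over segments, though it is nearer to 0 than the main -0.050. Against first probes of runs the values were 0.00015 for the 5hmC median and -0.023, -0.024 and -0.0051 for r. Against runs of 5 or more the medians differed by -0.036 for 5mC and -0.148 for 5hmC, and the IVT SD ratio was 1.05. The 5mC difference was -0.059 by means and -0.043 after quantile normalization. Within settings, weighted as among isolated probes (an alternative added after seeing the data), the median differences were -0.054, -0.233 and -0.148, the IVT SD ratio was 1.08 and the difference in r between the 5hmC arrays changed direction to 0.012. The IVT SD ratio was 0.992 in the earlier part of the probe order, split at its middle. At 1% of probes the isolated share over that of all probes was 0.984 for low 5mC and 0.957 for low 5hmC, against 1.02 for both at 5%, and 0.568 for high 5mC and 0.804 for high IVT values. Isolated probes with 5mC ranked higher numbered 839, 472 and 274 at 20, 30 and 40 points, and 314 and 476 with the 5hmC or the IVT array alone. Their share was above that of neighboured probes in each case. It was 11.6% against 10.1% at 20 points and 6.55% against 5.57% at 30. For the 5hmC array alone it was 4.36% against 3.199%, and for the IVT array alone 6.605% against 5.71%. Isolated probes with 5hmC higher numbered 724, 389 and 180, and 219 and 498, in the same order. Their share was near that of neighboured probes at 20 points (10.05% against 9.86%) and at 30 points (5.398% against 5.393%). The same held for the 5hmC array alone (3.04% against 3.01%). It was lower at 40 points (2.498% against 2.76%) and higher for the IVT array alone (6.91% against 6.36%). No paired analysis was possible because the groups hold 1 array apiece, and leaving out a replicate was not possible for the same reason. Signal over background is unknown.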
